A study of Homo sapiens with 24 samples.

Results

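The 10 genes described here are textbook transcriptional targets of the tumor suppressor p53, namely CDKN1A, MDM2, GDF15, TP53I3, SESN1, BBC3, FAS, BTG2, RRM2B and ZMAT3. They were chosen by name, as the rows of the deposited count table whose Ensembl identifiers map to these symbols, and all 10 were found among the 60675 genes listed. The cells were SW1783, a line from a human astrocytoma, exposed for 24 h to a water extract (WESF) or an ethanol extract (EESF) of Schisandrae Fructus, the fruit of Schisandra chinensis, and their mRNA was sequenced. WESF was given at 20, 100 or 500 µg/mL in batch A, and EESF at 12.4, 62 or 310 µg/mL in batch B. Each batch had its own group treated with 0.1% DMSO alone, called vehicle A and vehicle B, and each of the 8 groups had 3 libraries. All groups were the same cell line, and the labels name no genetic change in any of them. The highest EESF dose was chosen by the study as one that lowered viability mildly, while the highest WESF dose was not toxic. Because each extract was measured in 1 batch only, extract and batch cannot be told apart.

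p53 is a transcription factor that is held at a low level by MDM2, a ubiquitin ligase whose gene is itself a p53 target. When DNA is damaged or other stress stabilizes p53, it binds a pair of half-sites near its target genes and raises inhibitors of the cell cycle, inducers of apoptosis, and genes of metabolism and repair. Several of these genes are also raised without p53 by the integrated stress response, in which the transcription factor ATF4 is made while general translation is slowed. Astrocytic tumors frequently carry changes in this pathway. The activity of p53 was not measured here, so the genes are called p53 targets as a name for the list and not as a readout of p53.

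The markers of the labelled cell type were checked in the 24 libraries. Of 12 astrocyte and glioma markers, 5 reached a mean of 1 CPM (a gene's counts relative to the library total, scaled to a common size with TMM factors), namely VIM at 4898 CPM, CD44 at 2599, SOX9 at 70.8, SLC1A3 at 24.4 and NES at 6.00. GFAP, the filament protein that defines mature astrocytes, had a mean of 0.172 CPM, and S100B of 0.0684, so these defining markers were near 0. All 5 fibroblast and mesenchymal markers were above 1 CPM, with COL1A1 at 3629. Of 5 neuronal markers 2 were above 1 CPM, SNAP25 at 24.3 and SYT1 at 20.6, while RBFOX3 was at 0.326 and SLC17A7 at 0.242. The summed level of that neuronal list moved with the high doses, from 54.4 CPM in vehicle A to 23.9 at WESF 500 µg/mL and from 57.0 in vehicle B to 26.8 at EESF 310 µg/mL. Within it RBFOX3 went the other way, from 0.112 to 0.709 and from 0.138 to 0.563. Other markers moved as well. The summed astrocyte and glioma list went from 7779 CPM in vehicle A to 6584 at WESF 500 µg/mL and from 7943 in vehicle B to 7422 at EESF 310 µg/mL. Within it VIM, the most abundant, went from 4821 to 4796 and from 4922 to 5279, CD44 from 2836 to 1722 and from 2896 to 2077, and SLC1A3 from 31.8 to 10.4 and from 31.8 to 12.1. GFAP stayed under 1 CPM, at 0.149 and 0.268 in batch A and 0.0358 and 0.289 in batch B. The immune marker PTPRC went from 10.2 to 2.12 and from 9.81 to 1.88, while the summed immune list, led by CD68, went from 191 to 224 and from 210 to 272. The summed oligodendrocyte list went from 7.05 to 12.9 and from 6.93 to 9.84, with MOG at 0 in all libraries. The summed fibroblast and mesenchymal list went from 5720 to 5127 and from 5693 to 5358. Within it COL1A1 went from 3797 to 2940 and from 3798 to 3403, and PDGFRB from 76.3 to 43.8 and from 75.2 to 45.3. COL1A2 went the other way, from 1817 to 2121 and from 1790 to 1888. The part of these changes in the results was not tested. The total of a library was 26447834 to 28461841 counts in vehicle A and 20731749 to 24692309 at WESF 500 µg/mL, and it was 18727797 to 20465712 in vehicle B and 29659110 to 32567395 at EESF 310 µg/mL. Depth thus separated each high dose from its vehicle, in opposite directions for the extracts.

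Matches to the binding sequence of p53 are printed because binding by p53 is what the genes are listed for. The p53 response element was searched as 2 half-sites of 10 bases with no spacer, each with a core of C, then 2 bases that are A or T, then G, within 5 kb on each side of the transcript start on GRCh38. The element reads the same on both strands. Of the 9 genes reported, 8 had a match with at most 2 mismatches, against 22.9% of the 20046 protein-coding windows of the same length. The best match of RRM2B is not reported here, so the count leaves it out. The matches are shown along the strand of the gene, with the 2 core positions in capitals whether or not they match.
CDKN1A (chr6:36676449-36676468, upstream of the start): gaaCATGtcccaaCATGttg
CDKN1A (chr6:36677331-36677350, upstream of the start): gaaGAAGactgggCATGtct
MDM2 (chr12:68808923-68808942, intron): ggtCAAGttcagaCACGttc
MDM2 (chr12:68811195-68811214, intron): ggaCTTGcctagtCTTAtct
GDF15 (chr19:18385308-18385327, upstream of the start): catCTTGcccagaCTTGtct
TP53I3 (chr2:24086781-24086800, upstream of the start): ataCATCctcagaCATGttt
BBC3 (chr19:47232568-47232587, upstream of the start): gggTCTGcccaggCATGtcc
FAS (chr10:88991309-88991328, intron): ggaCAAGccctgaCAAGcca
BTG2 (chr1:203303642-203303661, upstream of the start): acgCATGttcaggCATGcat
ZMAT3 (chr3:179070188-179070207, intron): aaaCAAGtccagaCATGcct

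The ZMAT3 site had 0 mismatches, as did a site in 0.15% of the windows, and each other site printed had 2. SESN1 had no match better than 3 mismatches within 5 kb of the start scanned, a level that 90.1% of the windows reached. The second site of CDKN1A, both sites of MDM2 and those of TP53I3 and BBC3 had mismatches within a core, as the letters show. A match of letters is a description of these windows and does not show that p53 bound there in SW1783.

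**Figure D1:**
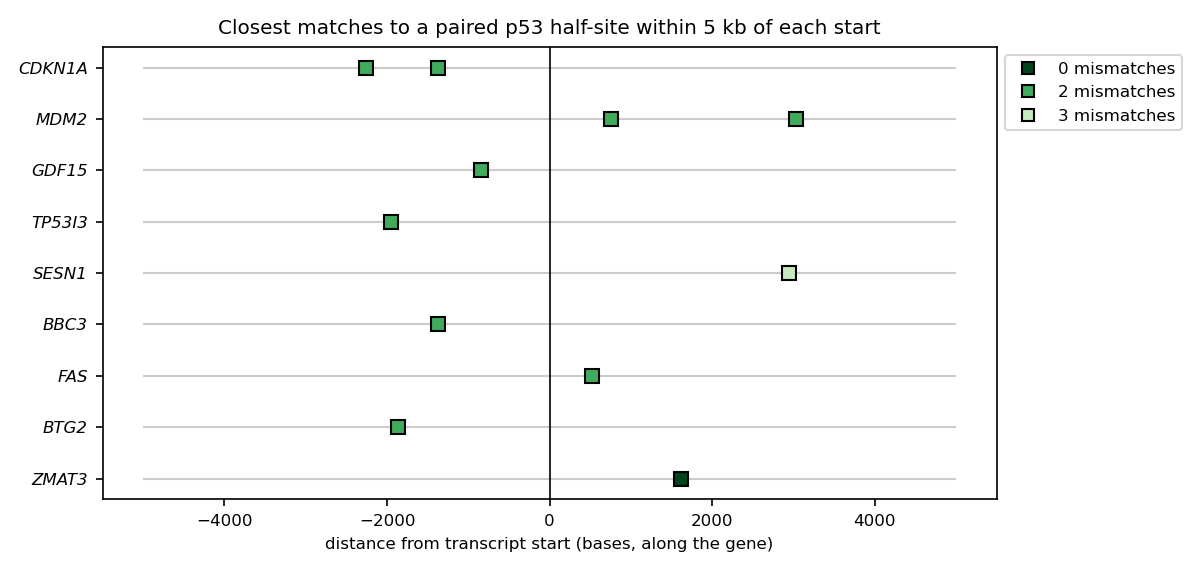
Closest matches to a paired p53 half-site in 9 p53 target genes, by the distance of the site's centre from the transcript start in bases, along the gene. Squares are shaded by the number of mismatches, and the ZMAT3 site is the darkest, at 0 mismatches and 1612 bases after the start.

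In promoters taken from RefSeq (GRCh38, 250 bases before to 50 after each start), 9 of the genes had an entry. A p53 half-site, searched singly and without mismatches, occurred in 2 of these promoters, SESN1 and FAS, and in 6.63% of the 35116 promoters. The FAS half-site is the first of the pair printed above, and that of SESN1 lies 49 bases before the RefSeq start, which is downstream of the start scanned above, and is shown with its half-site in capitals.
SESN1 (chr6:109009028-109009037): tgtcgtctGGACAAGTCTccacaagt

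The amino acid response element, TGATGNAA, through which ATF4 acts, was in 0 of the 9 promoters and in 3.62% of all, searched on both strands. The cyclic AMP response element, TGACGTCA, was in 0 of them and in 1.85% of all. These letters are absent from these windows, and nothing follows from that about the factors.

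Levels between genes were compared per kilobase of the canonical transcript. In vehicle A the order was CDKN1A at 9.85 CPM per kb, ZMAT3 at 9.71, TP53I3 at 9.03 and RRM2B at 8.18, then MDM2 at 5.76, FAS at 4.95, GDF15 at 2.42, SESN1 at 1.56, BBC3 at 0.297 and BTG2 at 0.278. Among the first 4 of these, each gene overlapped its neighbor in the order across the 3 libraries, and so did BBC3 and BTG2. The other neighbors did not overlap. BBC3 and BTG2 rested on 5 to 49 counts in a library, so their values carried the widest errors of the list. At WESF 500 µg/mL TP53I3 was the seventh of the 10 genes, at 3.19 CPM per kb, and GDF15 the fifth, at 6.09. At EESF 310 µg/mL the same places were taken by TP53I3, at 4.22, and GDF15, at 5.15. In both groups GDF15 overlapped the sixth gene, FAS, at 5.80 and 5.14, so their order is not settled. Between the vehicles none of the 10 genes had an adjusted p under 0.05 in edgeR or DESeq2, where in edgeR the share of all 13001 genes called was 0%, and 371 of these genes but none of the 10 had an unadjusted p under 0.05. BTG2 was the only one of the 10 whose vehicle libraries did not overlap, at 0.700 to 0.796 CPM in vehicle A and 0.447 to 0.670 in vehicle B.

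**Figure D2:**
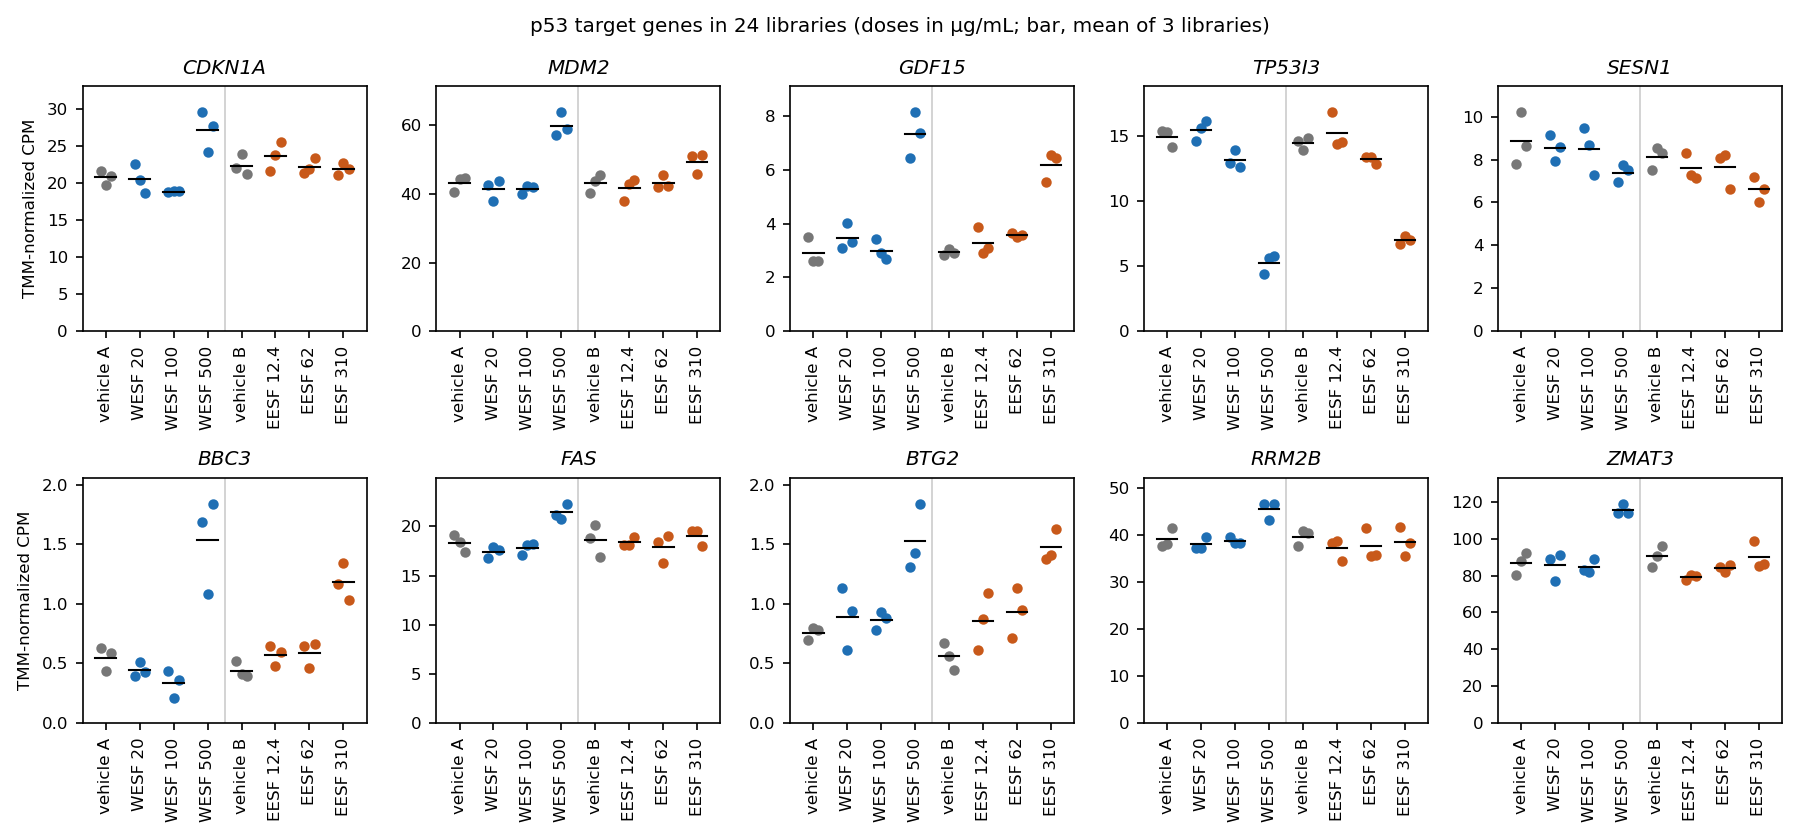
TMM-normalized CPM of 10 p53 target genes in each of 24 libraries (y axis, linear from 0), by group, with doses in µg/mL. Points are libraries and bars are means of 3, with vehicles in gray, WESF in blue and EESF in orange. TP53I3 fell at the high dose of either extract, while ZMAT3 and CDKN1A stood apart from the vehicle at WESF 500 µg/mL and overlapped it at EESF 310 µg/mL.

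The first question was which of the genes a high dose changed. At WESF 500 µg/mL against vehicle A, all 10 genes were tested and all 10 had an adjusted p under 0.05 in edgeR, with 8 higher and 2 lower. In none of them did the 3 treated libraries overlap the 3 vehicle libraries. The share of all genes without such an overlap was not counted at any dose, so non-overlap only describes each gene. Among all 13129 genes tested, 34.3% were called higher and 34.6% lower, so most genes were called at this dose. Of the 10 genes 4 were DEGs (called and beyond 1.5-fold in either direction), with GDF15, BBC3 and BTG2 higher and TP53I3 lower. The share of all genes was 11.1% for higher and 13% for lower DEGs. The median log2 fold change of the 10 genes was 0.40, and that of all genes was 0.00.

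At EESF 310 µg/mL against vehicle B, 6 of the 10 genes had an adjusted p under 0.05, with MDM2, GDF15, BBC3 and BTG2 higher and TP53I3 and SESN1 lower. In these 6 the treated and vehicle libraries did not overlap, a trait whose share among all genes was not counted. Among 13092 genes tested, 29.3% were called higher and 28.7% lower. GDF15, BBC3, BTG2 and TP53I3 were DEGs here too, where 8.21% of all genes were higher and 9.17% were lower DEGs. The median of the 10 genes was 0.01, the same as that of all genes. RNA was measured from whole cultures, so fewer cells that express a gene and less of its RNA per cell cannot be told apart.

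**Figure D3:**
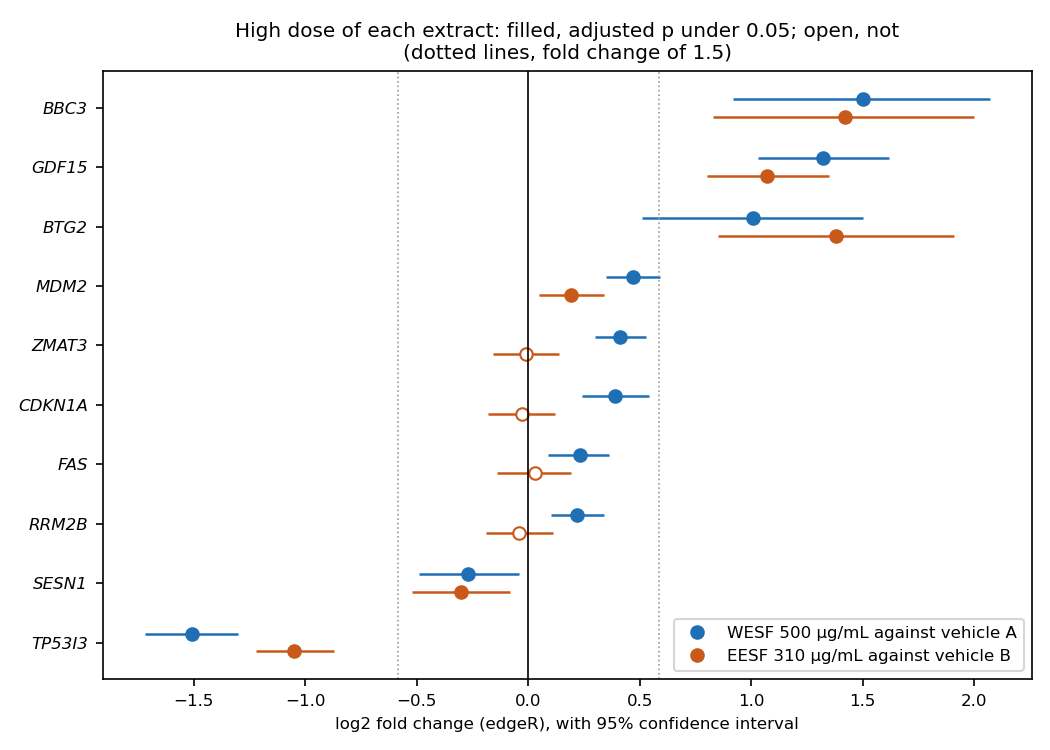
Log2 fold change of 10 p53 target genes at the high dose of each extract against the vehicle of its batch (x axis), with 95% confidence intervals from edgeR and 3 libraries per group. Filled points had an adjusted p under 0.05. The extracts lie close for BBC3, at 1.5 and 1.42, and apart for ZMAT3, at 0.41 and -0.01.

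MDM2, the ligase that marks p53 for degradation, was at 40.5, 44.5 and 44.6 CPM in vehicle A and at 57.1, 63.8 and 58.9 CPM at WESF 500 µg/mL. The groups were well apart, and the log2 fold change was 0.47 (SE 0.056, edgeR adjusted p = 1.07e-06). In batch B it was at 40.3, 43.9 and 45.4 CPM in the vehicle and at 51.0, 45.9 and 51.3 CPM at EESF 310 µg/mL. The lowest treated library lay only just above the highest vehicle library, and the log2 fold change of 0.19 (SE 0.067) had an edgeR adjusted p of 0.0252. That call was lost without vehicle B replicate 1 or 2 or without treated replicate 1 or 3, where the adjusted p was 0.0505 to 0.124. The value of MDM2 was not a whole number in any of the 24 libraries, which is how RSEM writes a gene whose reads it divided with other loci, so its level is less certain than that of genes with whole counts.

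MDM4, a relative of MDM2 that binds and restrains p53, rose at the high dose of either extract, with log2 fold changes of 0.37 (SE 0.089) for WESF and 0.27 (SE 0.060) for EESF and edgeR adjusted p of 0.00142 and 0.00175. It was also called at the medium and low doses of EESF, at 0.26 and 0.20, in comparisons that share the vehicle B libraries. PPM1D, the phosphatase that dephosphorylates p53 and its kinases and a p53 target itself, fell by 0.26 (SE 0.075) with WESF and by 0.33 (SE 0.075) with EESF, with edgeR adjusted p of 0.00522 and 0.00267.

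Among inhibitors of the cell cycle, CDKN1A encodes p21, which binds cyclin-dependent kinases and is the classical mediator of arrest by p53. It was at 21.7, 19.8 and 21.0 CPM in vehicle A and at 29.6, 24.2 and 27.8 CPM at WESF 500 µg/mL. All treated libraries were above all vehicle libraries, and the log2 fold change was 0.39 (SE 0.071, edgeR adjusted p = 0.000124), a fold change of 1.31. In batch B it was at 22.1, 23.9 and 21.2 CPM in the vehicle and at 21.1, 22.8 and 22.0 CPM at EESF 310 µg/mL. These groups overlapped, and the log2 fold change of -0.03 had a 95% confidence interval of -0.18 to 0.12.

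BTG2, an antiproliferative protein that recruits the deadenylation machinery to mRNA, was near the floor of these libraries. It was at 0.700, 0.796 and 0.779 CPM in vehicle A and at 1.31, 1.43 and 1.84 CPM at WESF 500 µg/mL, and at 0.670, 0.563 and 0.447 CPM in vehicle B and at 1.38, 1.41 and 1.63 CPM at EESF 310 µg/mL. Neither pair of groups overlapped. The log2 fold change was 1.01 (SE 0.23, edgeR adjusted p = 0.00106) with WESF and 1.38 (SE 0.24, edgeR adjusted p = 0.000389) with EESF, on 8 to 49 counts per library.

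Among inducers of apoptosis, BBC3 encodes PUMA, a BH3-only protein that neutralizes the anti-apoptotic BCL2 proteins. It was at 0.627, 0.434 and 0.584 CPM in vehicle A and at 1.69, 1.08 and 1.84 CPM at WESF 500 µg/mL, and at 0.516, 0.409 and 0.391 CPM in vehicle B and at 1.17, 1.34 and 1.03 CPM at EESF 310 µg/mL. The treated libraries were higher without overlap in either batch, with log2 fold changes of 1.5 (SE 0.27, edgeR adjusted p = 0.000113) and 1.42 (SE 0.27, edgeR adjusted p = 0.000667). These rises rested on 22 to 42 counts in a treated library and 7 to 17 in a vehicle library.

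FAS, the death receptor for the FAS ligand, was at 19.1, 18.4 and 17.4 CPM in vehicle A and at 21.2, 20.8 and 22.3 CPM at WESF 500 µg/mL. The rise was small and without overlap, with a log2 fold change of 0.23 (SE 0.063, edgeR adjusted p = 0.00398). With EESF 310 µg/mL it was at 19.5, 19.5 and 18.0 CPM against 18.8, 20.1 and 16.9 in the vehicle. The groups overlapped, and the log2 fold change was 0.03, with a 95% confidence interval of -0.14 to 0.19.

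TP53I3, also named PIG3, is a quinone oxidoreductase that makes reactive oxygen species and is counted among the pro-apoptotic targets of p53. It was at 15.4, 15.3 and 14.1 CPM in vehicle A and at 4.40, 5.62 and 5.78 CPM at WESF 500 µg/mL, and at 14.6, 13.9 and 14.8 CPM in vehicle B and at 6.68, 7.29 and 6.98 CPM at EESF 310 µg/mL. No treated library came near a vehicle library. The level was 2.84-fold lower with WESF, a log2 fold change of -1.51 (SE 0.099, edgeR adjusted p = 7.59e-10), and 2.07-fold lower with EESF, a log2 fold change of -1.05 (SE 0.081, edgeR adjusted p = 6.13e-07). It had the smallest adjusted p of the 10 genes at either high dose.

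Among genes of metabolism and stress signaling, GDF15 encodes a secreted cytokine that rises in many stressed tissues and is a target of ATF4 as well as of p53. It was at 3.5, 2.60 and 2.61 CPM in vehicle A and at 6.44, 8.13 and 7.36 CPM at WESF 500 µg/mL, and at 2.84, 3.07 and 2.90 CPM in vehicle B and at 5.55, 6.55 and 6.45 CPM at EESF 310 µg/mL. All treated libraries were above all vehicle libraries. The fold change was 2.50 with WESF, a log2 fold change of 1.32 (SE 0.14, edgeR adjusted p = 2.56e-07), and 2.11 with EESF, a log2 fold change of 1.07 (SE 0.13, edgeR adjusted p = 1.67e-05).

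SESN1, a sestrin that restrains the growth kinase mTORC1, was at 7.78, 10.2 and 8.61 CPM in vehicle A and at 6.95, 7.74 and 7.49 CPM at WESF 500 µg/mL. The groups were adjacent, with a log2 fold change of -0.27 (SE 0.11, edgeR adjusted p = 0.0369). In batch B it was at 7.53, 8.54 and 8.32 CPM in the vehicle and at 7.18, 6.01 and 6.65 CPM at EESF 310 µg/mL, again adjacent, with a log2 fold change of -0.30 (SE 0.10, edgeR adjusted p = 0.0245). Both calls were lost with DESeq2, at adjusted p of 0.0814 and 0.0710. They were also lost without single libraries, at 0.240 without vehicle A replicate 2, where the log2 fold change was only -0.15, 0.121 without WESF 500 µg/mL replicate 1 and 0.0714 without its replicate 3, and at 0.0875 without vehicle B replicate 2, 0.0676 without vehicle B replicate 3 and 0.0985 without EESF 310 µg/mL replicate 2.

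Among genes of DNA supply and RNA control, RRM2B encodes the p53-inducible subunit of ribonucleotide reductase, which makes deoxynucleotides for repair. It was at 37.6, 38.1 and 41.6 CPM in vehicle A and at 46.6, 43.2 and 46.7 CPM at WESF 500 µg/mL, without overlap, with a log2 fold change of 0.22 (SE 0.056, edgeR adjusted p = 0.00207). In batch B it was at 41.8, 35.5 and 38.3 CPM at EESF 310 µg/mL against 37.7, 40.8 and 40.4 in the vehicle. The groups overlapped, and the log2 fold change of -0.04 had a 95% confidence interval of -0.19 to 0.11.

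ZMAT3, an RNA-binding zinc finger protein that regulates splicing and mRNA stability, was at 80.1, 87.8 and 92.3 CPM in vehicle A and at 114, 119 and 114 CPM at WESF 500 µg/mL. The treated libraries lay close together above the vehicle, with a log2 fold change of 0.41 (SE 0.053, edgeR adjusted p = 2.53e-06). In batch B it was at 98.8, 85.1 and 86.4 CPM at EESF 310 µg/mL against 84.6, 90.5 and 96.3 in the vehicle. These groups overlapped, with the highest library a treated one, and the log2 fold change was -0.01, with a 95% confidence interval of -0.16 to 0.14.

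The next question was how the changes depended on dose. At WESF 100 µg/mL none of the 10 genes was called by edgeR or DESeq2, against 4.1% of 13112 genes, and the log2 fold changes ran from -0.71 for BBC3 to 0.18 for BTG2. CDKN1A, at -0.14, and TP53I3, at -0.19, had an unadjusted p under 0.05, with edgeR adjusted p of 0.176 and 0.148. Their libraries did not overlap those of the vehicle. BBC3 was at 0.432, 0.211 and 0.359 CPM here, below every vehicle A library, with an interval of -1.48 to 0.06. At WESF 20 µg/mL none was called by edgeR or DESeq2, against 0% of 13131 genes, of which 470 had an unadjusted p under 0.05. None of the 10 genes was among those 470, and each overlapped the vehicle.

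At EESF 62 µg/mL none of the 10 genes was called by edgeR or DESeq2, against 15.4% of 12978 genes. GDF15, at 0.29, and BTG2, at 0.71, had an unadjusted p under 0.05, with edgeR adjusted p of 0.162 and 0.125. Their libraries did not overlap those of the vehicle, and neither did those of TP53I3, at -0.13 (edgeR adjusted p = 0.255). At EESF 12.4 µg/mL 1 gene was called, against 9.35% of 12892 genes. This was ZMAT3, at 77.7, 80.3 and 80.0 CPM against 84.6, 90.5 and 96.3 in the vehicle, with a log2 fold change of -0.20 (SE 0.051, edgeR adjusted p = 0.0288). The call was lost on leaving out vehicle B replicate 2 or 3 or any treated library, at adjusted p of 0.0931 to 0.121, and at the high dose ZMAT3 overlapped the vehicle.

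The high dose was also compared with the low dose of the same extract, without the vehicles. WESF 500 against 20 µg/mL gave 9 calls among the 10 genes, where 68.1% of 13100 genes were called, and SESN1 was the exception, at -0.21 (edgeR adjusted p = 0.0664). EESF 310 against 12.4 µg/mL gave 6 calls, where 57% of 13197 genes were called, with MDM2, GDF15, BBC3, BTG2 and ZMAT3 higher and TP53I3 lower. The changes of TP53I3 in these comparisons were -1.56 and -1.12. BTG2 lost its call without WESF 20 µg/mL replicate 2 or WESF 500 µg/mL replicate 3, at adjusted p of 0.0815 and 0.0764, and BTG2 and ZMAT3 lost theirs without EESF 12.4 µg/mL replicate 1, at 0.0569 and 0.0632.

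**Figure D4:**
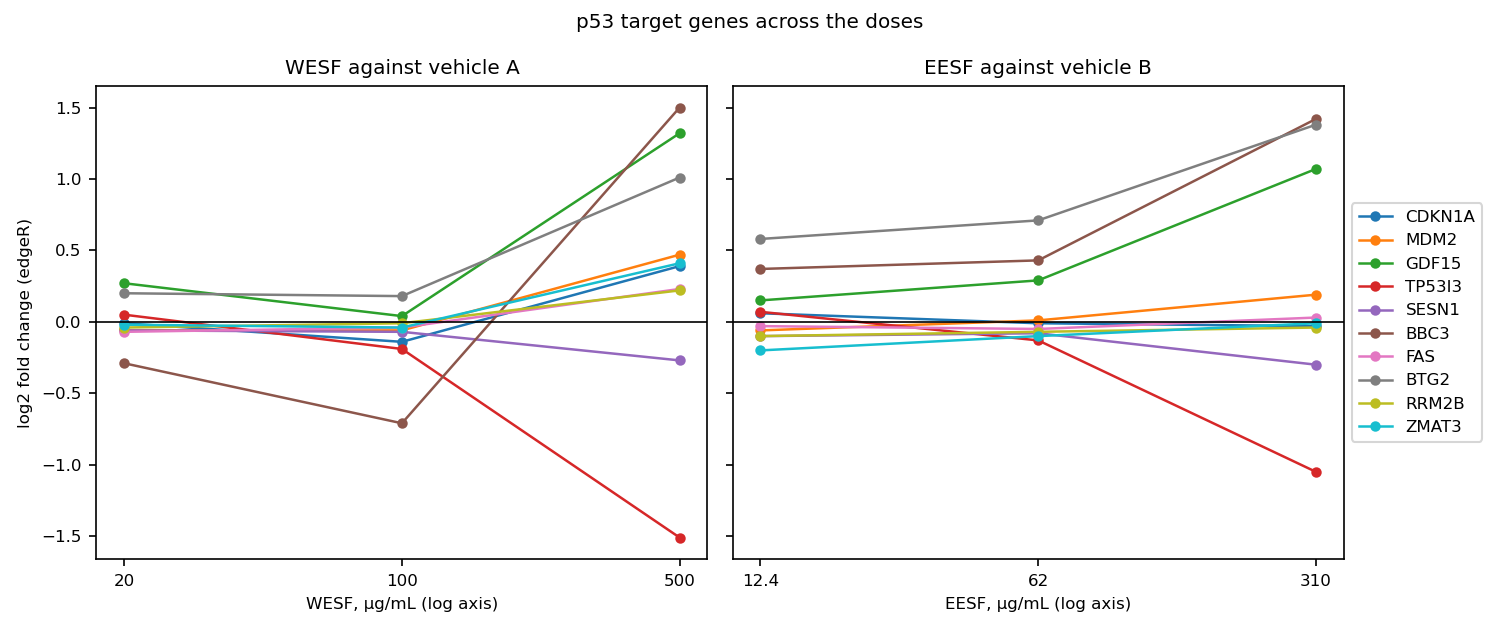
Log2 fold change of 10 p53 target genes against the vehicle of the batch (y axis) by dose in µg/mL (x axis, log scale), with WESF on the left and EESF on the right. Lines join the doses of a gene. Only the high doses carried changes beyond a fold of 1.5 that passed the test, in GDF15, BBC3, BTG2 and TP53I3.

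The third question was whether the extracts differed, tested as an interaction over the 12 libraries of the doses and vehicles compared, with negative values where EESF gave the lower change. At the high doses the difference passed the test for 5 of the 10 genes, against 26% of 13376 genes, and for none of the 5 did it reach a fold of 1.5. It was -0.42 (SE 0.10, edgeR adjusted p = 0.00766) for CDKN1A and -0.42 (SE 0.093, edgeR adjusted p = 0.00421) for ZMAT3, which had risen with WESF and overlapped the vehicle with EESF. It was -0.27 (SE 0.090, edgeR adjusted p = 0.0337) for MDM2 and -0.26 (SE 0.091, edgeR adjusted p = 0.0430) for RRM2B. The difference was 0.46 (SE 0.13, edgeR adjusted p = 0.0150) for TP53I3, whose fall was smaller with EESF. Same-numbered libraries deviated together between the vehicles, while those of the treated groups were not compared across batches. With the replicate number as a block the calls of TP53I3, MDM2 and RRM2B were lost, at edgeR adjusted p of 0.0514, 0.0531 and 0.0926, and the count was 2. Without vehicle A replicate 1, WESF 500 µg/mL replicate 3, vehicle B replicate 2 or 3, or EESF 310 µg/mL replicate 2, the count was 3, with MDM2 and RRM2B lost.

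For the other 5 genes the difference did not pass the test. Its 95% confidence interval was -0.66 to 0.17 for GDF15, -0.36 to 0.29 for SESN1, -0.96 to 0.81 for BBC3, -0.40 to 0.01 for FAS and -0.32 to 1.07 for BTG2. The interval of BBC3 was wide enough to hold a difference of a fold of 1.5 in either direction, and those of GDF15 and BTG2 in 1 direction. At the medium doses 0 of the 10 genes differed between the extracts in edgeR or DESeq2, against 0.203% of 13276 genes, and at the low doses 0 in either tool, against 0.00756% of 13221 genes. BBC3 had an unadjusted p under 0.05 at the medium doses, with a difference of 1.13 (95% confidence interval 0.14 to 2.12, edgeR adjusted p = 0.314), and none of the 10 did at the low doses. The doses of the extracts differ in µg/mL, so the ranks low, medium and high were matched and not the masses.

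Other genes of the pathway were taken from lists, which partly overlap. Their counts are to be read against all genes tested, of which 34.3% were higher and 34.6% lower at WESF 500 µg/mL and 29.3% higher and 28.7% lower at EESF 310 µg/mL. Of 38 further p53 targets 37 were tested, and at WESF 500 µg/mL 17 were higher (45.9%) and 10 lower (27%), with a median log2 fold change of 0.10 against 0.00 for all genes. At EESF 310 µg/mL 14 were higher (37.8%) and 9 lower (24.3%), with a median of 0.12 against 0.01. The shares that were lower thus lay a little under those of all genes, and the shares that were higher lay above them. SESN2, the stress-induced sestrin, rose by 1.65 (SE 0.054) with WESF and 1.10 (SE 0.060) with EESF. TNFRSF10A, a receptor for the death ligand TRAIL, rose by 1.18 (SE 0.18) and 1.11 (SE 0.17), from low levels of 1.63 and 1.55 CPM in the vehicles. PMAIP1, which encodes the BH3-only protein NOXA, rose by 1.57 and 0.70, and GADD45A, a growth arrest gene, by 0.78 and 0.77. STEAP3, a metalloreductase, fell by 1.14 with WESF and by 0.73 with EESF, and KITLG, the ligand of the KIT receptor, by 0.97 and 0.92. TRIM22 fell by 0.51 and 0.46, and TP53INP1 fell by 0.71 with EESF and had a log2 fold change of -0.22 (edgeR adjusted p = 0.0840) with WESF. Falls were thus found among accepted p53 targets beside TP53I3.

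At lower doses the share of these targets that was called was close to that of all genes. GADD45A was the only one at WESF 100 µg/mL, at 0.25, which is 2.7% of the 37 against 4.1% of all genes, and 0 of the 37 was called at 20 µg/mL. At EESF 62 µg/mL 3 were higher (NADSYN1, NINJ1 and PIDD1) and 3 lower (KITLG, PLK2 and STEAP3), together 16.2% against 15.4% of all genes. At 12.4 µg/mL PIDD1 was higher, at 0.42, and KITLG and PLK2 were lower, at -0.19 and -0.37, together 8.11% against 9.35%. The genes named at these lower doses were chosen after their values were seen.

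Of 18 regulators of p53 tested, 6 were higher (33.3%, against 34.3% of all genes) and 4 lower (22.2%, against 34.6%) with WESF 500 µg/mL. With EESF 310 µg/mL 3 were higher (16.7%, against 29.3%) and 5 lower (27.8%, against 28.7%), so at these doses none of the shares exceeded that of all genes. At the lower EESF doses the share called was above that of all genes, with 2 higher and 6 lower at both 62 and 12.4 µg/mL, which is 44.4% of the 18 against 15.4% and 9.35% of all genes. Both comparisons use the same 3 vehicle B libraries, so the counts are not independent of each other. EESF 310 against 12.4 µg/mL, which does not use them, gave 3 higher and 4 lower of the 18, which is 38.9% against 57% of all genes, and EP300 was not among those called. The acetyltransferases EP300 and CREBBP were among the 6 that were lower against vehicle B, at -0.47 and -0.42 with 62 µg/mL and at -0.39 and -0.32 with 12.4 µg/mL. With WESF 1 of the 18 was called at 100 µg/mL, CHEK2, which is 5.56% against 4.1% of all genes, and 0 at 20 µg/mL. CHEK2, a kinase that phosphorylates p53 after DNA damage, rose by 0.60 and 0.51. CREBBP, an acetyltransferase that acts on p53, fell by 0.41 and 0.69, and TP63, a gene of the p53 family, by 1.14 and 0.64. The EESF value of TP63 had an edgeR adjusted p of 0.0499 that a replicate block moved to 0.0671. Its treated and vehicle libraries overlapped, and without single libraries the log2 fold change ranged from -0.95 to -0.47. USP7, a deubiquitinase of MDM2 and p53, rose by 0.34 with WESF and had a log2 fold change of 0.11 (edgeR adjusted p = 0.0731) with EESF. CDKN2A, whose products include the MDM2 inhibitor ARF, rose by 0.25 with EESF 310 µg/mL and was at -0.06 with WESF, and EP300 fell by 0.61 with EESF and was at -0.09 with WESF.

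Partners of CDKN1A were called in both directions, as all genes were. Of 19 cyclins, cyclin-dependent kinases and RB family genes tested, 8 were higher (42.1%, against 34.3% of all genes) and 9 lower (47.4%, against 34.6%) with WESF 500 µg/mL. With EESF 310 µg/mL 5 were higher (26.3%, against 29.3%) and 9 lower (47.4%, against 28.7%). CDKN2D, an inhibitor of CDK4 and CDK6, rose by 1.32 and 0.75 and CCNA2, the S and G2 phase cyclin, by 0.81 and 0.42. CCNE2 fell by 0.73 and 0.93, RBL1 by 0.85 and 1.09, and CDKN2C by 0.97 and 0.61. CDKN1B, the p27 inhibitor, rose by 0.56 with WESF and was at -0.02 with EESF. CCND1 rose by 0.54 with WESF and 0.40 with EESF, and CDK6 fell by 0.32 and 0.64.

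Genes repressed through p21 and the DREAM complex were called in both directions too. Of 23 tested, 10 were higher (43.5%, against 34.3% of all genes) and 9 lower (39.1%, against 34.6%) with WESF 500 µg/mL. For EESF 310 µg/mL 9 were higher (39.1%, against 29.3%) and 11 lower (47.8%, against 28.7%). The mitotic kinases BUB1 and AURKB rose by 0.83 and 0.71 with WESF and by 0.47 and 0.76 with EESF, and CDC25C by 0.68 and 0.64. CCNB2 rose by 0.60 and 0.51. MCM3, a subunit of the replicative helicase, fell by 1.46 with WESF and by 0.87 with EESF, and MCM6 by 0.65 and 0.62. MCM4 fell by 0.48 and 0.45, and MYBL2 by 0.72 and 0.38. RRM2, the S phase partner that RRM2B can replace, fell by 0.20 and 0.28, while RRM1, the large subunit, was at -0.05 and -0.07 (edgeR adjusted p of 0.278 and 0.198).

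BCL2 family genes, the targets of BBC3 protein and its relatives, numbered 12 among those tested, with 4 higher (33.3%, against 34.3% of all genes) and 7 lower (58.3%, against 34.6%) at WESF 500 µg/mL. At EESF 310 µg/mL 5 were higher (41.7%, against 29.3%) and 3 lower (25%, against 28.7%). MCL1, an anti-apoptotic member, rose by 0.64 and 0.28, BAK1 by 0.37 and 0.27, and BCL2L1 by 0.19 and 0.33. BMF fell by 2.04 and 1.93, and BCL2 itself by 0.43 and 0.54. BCL2L11 fell by 0.24 and 0.86. BOK fell by 0.64 with WESF and was at -0.13 (edgeR adjusted p = 0.209) with EESF.

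Of 12 genes of death receptor signaling tested, around FAS, 4 were higher (33.3%, against 34.3% of all genes) and 5 lower (41.7%, against 34.6%) with WESF 500 µg/mL. With EESF 310 µg/mL 4 were higher (33.3%, against 29.3%) and 3 lower (25%, against 28.7%), so the shares lay near those of all genes. TNFRSF10B, the second TRAIL receptor, rose by 1.15 and 0.76, while TNFSF10, which encodes TRAIL, fell by 1.90 (SE 0.32) and 0.92 (SE 0.22). TNFSF10 was near the floor, going from 1.24 to 0.335 CPM with WESF and from 1.34 to 0.701 with EESF. CFLAR, which restrains caspase activation at the receptor, rose by 0.44 and 0.37, and RIPK1, a kinase of the receptor complex, fell by 0.25 and 0.25. TNFRSF1A fell by 0.29 with WESF and was at -0.02 with EESF. FASLG, the ligand of FAS, did not pass the filter on low counts.

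Of 11 sestrins and other brakes on mTORC1, 5 were higher (45.5%, against 34.3% of all genes) and 3 lower (27.3%, against 34.6%) with WESF 500 µg/mL. At EESF 310 µg/mL 4 were higher and 4 lower (36.4% each, against 29.3% and 28.7%). DDIT4, which acts through the TSC complex, rose by 1.91 and 1.02, NPRL2 by 0.65 and 0.71 and CASTOR1 by 0.67 and 0.71. CASTOR1 was at low levels of 1.62 and 1.52 CPM in the vehicles, with SE of 0.2 and 0.21. TSC1 fell by 0.49 and 0.47 and TSC2 by 0.50 and 0.38, and NPRL3 fell by 0.12 with WESF and was at 0.11 (edgeR adjusted p = 0.119) with EESF. SESN3 fell by 0.61 with EESF and was at -0.04 with WESF, so the 3 sestrins had different signs and sizes, with SESN2 higher. All 4 further BTG and TOB genes were higher with WESF 500 µg/mL, where 34.3% of all genes were, and 2 with EESF 310 µg/mL, where 29.3% were, on a list too short to set a share against. BTG1 rose by 1.00 and 0.66 and BTG3 by 0.40 and 0.35, and TOB2 rose by 0.30 with WESF and was at 0.12 (edgeR adjusted p = 0.0820) with EESF.

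The called genes of the integrated stress response were all higher. Of 16 tested, 15 were higher (93.8%, against 34.3% of all genes) and 0 lower with WESF 500 µg/mL, with a median of 0.68, and EIF2AK2 was not called, at 0.12 (edgeR adjusted p = 0.0640). With EESF 310 µg/mL 13 were higher (81.2%, against 29.3%) and 0 lower, with a median of 0.72, and the stress kinases EIF2AK2, EIF2AK3 and EIF2AK4 were not called, at -0.09, -0.17 and 0.04. TRIB3, a pseudokinase induced by ATF4, rose by 1.84 (SE 0.051) and 1.42 (SE 0.056), and ASNS, the asparagine synthetase, by 1.62 and 1.19. ATF3, a transcription factor induced by ATF4, rose by 1.74 and 1.00. SESN2 and DDIT4, given above, are also in this list. By the edgeR test of the difference at the high doses, 10 of the 16 had a lower change with EESF (62.5%). CEBPB had a higher one, and 26% of all genes passed this test. The median difference of the list was -0.31. At WESF 100 µg/mL ASNS and VLDLR were called, at 0.28 and 0.29, which is 12.5% of the 16 against 4.1% of all genes. At EESF 62 µg/mL DDIT3, ASNS, DDIT4 and CEBPB were called, which is 25% against 15.4%. At EESF 12.4 µg/mL DDIT4 and CEBPB were called, at 0.28 and 0.47, which is 12.5% against 9.35%. At WESF 20 µg/mL 0 of the 16 was called, against 0% of all genes. GDF15 rose at the doses at which most of this list did, and whether ATF4 took part in its rise was not tested.

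**Figure D5:**
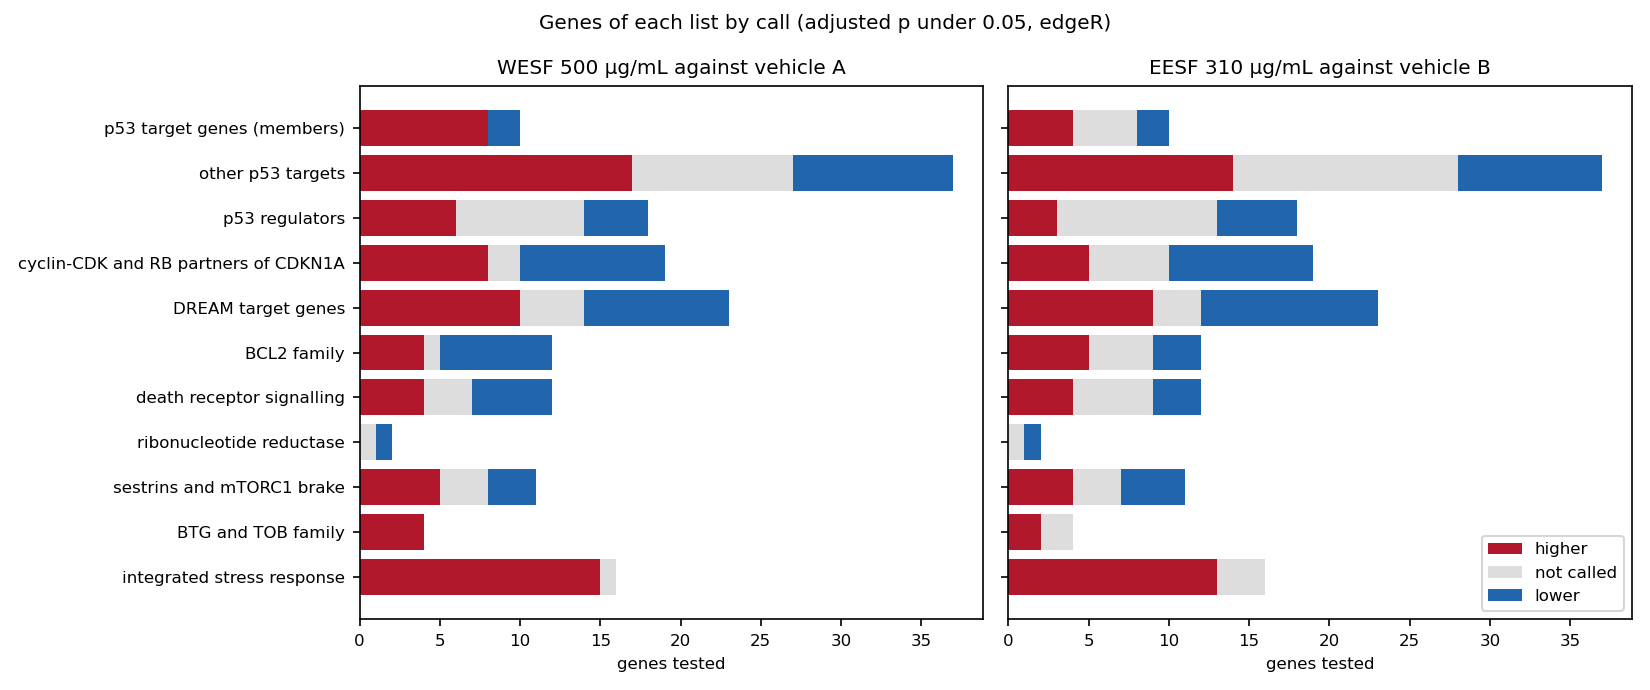
Genes of each list called higher (red), lower (blue) or not called (gray) with an adjusted p under 0.05 in edgeR, at WESF 500 µg/mL (left) and EESF 310 µg/mL (right), with the number of genes tested on the x axis. The integrated stress response has no lower gene, while the further p53 targets have 10 and 9 lower genes. The latter are 27% and 24.3% of the 37 tested, under the 34.6% and 28.7% of all genes.

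The protein-coding genes whose log2 CPM followed each p53 target most closely over the 24 libraries, after subtracting the vehicle mean of each batch, were listed by Pearson's r among 10642 genes with a mean of at least 5 CPM, as a description of libraries that share batches, doses and vehicles. Those of TP53I3 were COMMD9, AFAP1L2 and ZNF33B, each at 0.99. Those of GDF15 were KLC4, SARS1 and PCK2, each at 0.96, of which SARS1 is the cytosolic seryl-tRNA synthetase and PCK2 the mitochondrial phosphoenolpyruvate carboxykinase. Those of ZMAT3 were AGO2, CHUK and CACUL1, each at 0.96, and those of MDM2 were ETV5, YTHDC1 and LIN7C, each at 0.94. Those of CDKN1A were IGFBP1, PNRC1 and ELK1, each at 0.86, so CDKN1A had looser neighbors than TP53I3. For BTG2 they were NLGN2 at 0.94, LTB4R at 0.92 and IRX2 at 0.91, for BBC3 they were BACE2, SMIM29 and PPIF at 0.91, and for RRM2B they were G2E3 at 0.90, DEPDC1 at 0.89 and CMPK1 at 0.88. For FAS they were N4BP2L2 at 0.83 with SHPK and SPARC at 0.82, and for SESN1 they were TMEM38B and ZWILCH at 0.81 with MRE11 at 0.80.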

How the data were processed

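SW1783 RNA was sequenced in 24 libraries. Per the labels and the study's methods, the authors used FastQC 0.11.9, Trim Galore 0.6.6, STAR 2.7.9a and RSEM 1.3.3 on GRCh38, and deposited estimated counts per gene (RSEM's expected counts), unnormalized. RSEM divides ambiguous reads, and 10.9% of the values were not whole. Symbols, coordinates and transcript lengths came from GENCODE release 44, which holds 56558 of the 60675 genes. Totals ranged from 18727797 to 32567395. Replicates differed beyond sampling noise, the lowest chi-square over its degrees of freedom being 2.74, so that the number of libraries limits precision. The labels do not say that the libraries came from separate cultures, so p-values measure the spread between these libraries, which may be technical.

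Counts were rounded. Protein-coding genes passing filterByExpr were tested with edgeR 4.0.16 (R 4.3.3, TMM, 2-sided quasi-likelihood test, 95% confidence intervals), each comparison on its own 6 libraries and differences between extracts as an interaction on 12, with Benjamini-Hochberg adjustment over all genes tested. DEGs also needed a fold change beyond 1.5. The study used DESeq2, and DESeq2 1.42.0 was an alternative. Others were DESeq2's size factors, no filter, all genes of the table, all groups in 1 fit, a replicate block and leaving out each library. Tests were checked on simulated data. The p53 targets, gene lists and rules were chosen with earlier results of these data known. All 10 targets were named, with MDM4, PPM1D, up to 3 rises and 3 falls per list at each high dose, and the 3 closest genes by correlation. Some genes that this rule names are not reported here. The strand setting of the counting is not given in the sources used here, so reads of genes that overlap on opposite strands may not be separated. Vehicle libraries of the same number deviated together across batches (r of 0.58, 0.29 and 0.52), while the numbers did not pair treated with vehicle libraries.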

Additional observations from a re-analysis of the deposited data

Results flagged for a closer look

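The change with EESF 310 µg/mL differed from the change with WESF 500 µg/mL in 5 p53 targets by the test of the difference itself (edgeR, 12 libraries). On the log2 scale the difference was -0.42 for CDKN1A, -0.27 for MDM2, 0.46 for TP53I3, -0.26 for RRM2B and -0.42 for ZMAT3. Among all genes 26% passed this test. The count was 3 to 5 without single libraries and 2 with a replicate block. RRM2B lost the call in 9 of 19 alternatives, MDM2 in 7 and TP53I3 in 1, the block, while CDKN1A and ZMAT3 kept it in all 19. The extracts were measured in different batches, so extract and batch cannot be told apart.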

How the results depend on the processing

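Of the alternatives to values of the 10 p53 targets that kept all libraries, 279 kept their side of the threshold and 7 lost the call, and of those that left out 1 library 290 kept it, 33 lost the call and 13 uncalled values changed sign. The calls of GDF15, TP53I3, BBC3 and BTG2 at either high dose held under every alternative run. The counts called at WESF 500 and EESF 310 µg/mL, 10 and 6, were 9 and 5 with DESeq2 and 9 to 10 and 4 to 5 without single libraries, so the count of 6 was not reached when any 1 library was left out. At EESF 12.4 µg/mL the count was 0 with all groups in 1 fit and 0 to 1 without single libraries. At EESF 62 µg/mL it was 0 to 1 without single libraries, with ZMAT3 called without vehicle B replicate 1. The count that differed between the extracts at the high doses was 3 to 5 without single libraries and 2 with a replicate block, where MDM2, TP53I3 and RRM2B had adjusted p of 0.0531, 0.0514 and 0.0926. With a block of the vehicle libraries only, chosen after seeing the data, it was 5. With the block, MDM2 at EESF 310 µg/mL had an adjusted p of 0.0538, and the block changed no other call of a p53 target. The numbers of treated and vehicle libraries share only a number.

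Without single libraries, log2 fold changes at EESF 310 µg/mL ranged from -0.07 to 0.01 for CDKN1A, -0.04 to 0.08 for FAS, -0.10 to 0.01 for RRM2B and -0.08 to 0.04 for ZMAT3, and the difference between the extracts from -0.15 to 0.06 for SESN1 and -0.27 to 0.07 for BBC3. The cause of these changes was not tested. The median of all genes moved by less than 0.1 under DESeq2's size factors. BBC3 and BTG2 are limited by depth, with 5 to 49 counts per library.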
